A study of Mus musculus with 16 samples.

Results

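Phospholipase A2 enzymes cut fatty acids from membrane phospholipids, and 9 genes that encode them were followed here in mouse skin, out of 55359 genes counted. They are the secreted enzymes *Pla2g2e* and *Pla2g2f*, the cytosolic enzymes *Pla2g4a*, *Pla2g4b*, *Pla2g4d*, *Pla2g4e* and *Pla2g4f*, the calcium-independent enzyme *Pla2g6*, and *Pla2g7*, the acetylhydrolase of platelet-activating factor. They were picked by gene symbol from the GENCODE annotation of GRCm39, and all 9 were found in the count tables. RNA was sequenced from the whole dorsal skin of 16 wild type C57Bl/6 mice (C57Bl/6N in the study's text), with 4 mice in each of 4 groups. Males and females of 8 weeks had either been irradiated with UVB 3 times, 2 days apart, or not irradiated. According to the study's text, the irradiated skin was taken within hours of the last exposure. All carried the same genotype, with no transgene or deletion, and GEO's labels give the hair follicles as resting (telogen). The comparisons ask how the skin of each sex changed after UVB and whether the sexes differed in that change.

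A phospholipase A2 releases a free fatty acid, often arachidonic acid, and leaves a lysophospholipid. Arachidonic acid is the substrate from which cyclooxygenases and lipoxygenases make prostaglandins and related lipids. The family is divided into secreted enzymes, which act outside the cell, cytosolic enzymes, most of which need calcium to reach the membrane, and enzymes that do not depend on calcium. In skin, members of the family are known for their part in inflammation, in the turnover of keratinocyte lipids and in the barrier of the epidermis.

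The libraries held 16495776 to 33404831 reads on genes. Expression is given as CPM, a gene's counts relative to the size of its library, scaled between libraries by the TMM method of edgeR. *Xist* was at 1018 to 1209 CPM in the females and at no more than 5.13 CPM in the males, so the libraries carried the sex of their labels. Epidermal marker genes were abundant in all 4 groups, and a list of 10 genes of differentiated keratinocytes summed to 8984 to 28874 CPM. The no-UVB males stood apart in pairs. Replicates 3 and 4 had 94 and 146 CPM summed over 9 genes of the hair shaft and inner root sheath, including 10.3 and 21.4 CPM of *Krt25*, against 9 to 25 CPM of the list in all other mice, although telogen is the label of these mice too. Replicates 1 and 2 of the same group had 148 and 250 CPM of the immediate early gene *Fos*, against 10.5 to 35.8 CPM in all other mice. Results that rest on the no-UVB males are therefore given with all 4 mice and without either pair, where the pairs matter. Since whole skin was sequenced, a lower level can stem from fewer cells of a type or from less RNA per cell, and these cannot be told apart.

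Between the irradiated and the no-UVB males, 4 of the 8 members that could be tested were higher after UVB and 1 was lower, at a Benjamini-Hochberg adjusted *p* under 0.1 in the quasi-likelihood test of edgeR. Of all 16535 genes tested in males, 29.0% were called higher and 30.5% lower. In females the counts were also 4 higher and 1 lower, while 12.8% of the 16883 genes tested were called higher and 10.6% lower. The members that rose in both sexes were *Pla2g2f*, *Pla2g4e*, *Pla2g4f* and *Pla2g2e*, and the member that fell in both was *Pla2g4a*. *Pla2g4b*, *Pla2g6* and *Pla2g7* did not pass the test in either sex. The ninth member, *Pla2g4d*, had too few counts for that test and is described by its counts. Where a log2 fold change past 1 was asked for as well, 2 members remained higher in each sex, *Pla2g2f* and *Pla2g4e*, and 0 lower, against 4.08% of all genes higher and 3.31% lower in males and 1.63% higher and 1.08% lower in females. All 4 irradiated mice lay above all 4 no-UVB mice in 3 of the 8 members in males (22.9% of all genes) and in 4 in females (11.1%), and below them in 1 member in males (24.2%) and in 1 in females (10.1%). The median log2 fold change of the tested members was 0.25 in males and 0.37 in females, against -0.02 and 0.00 over all genes tested.

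**Figure D1:**
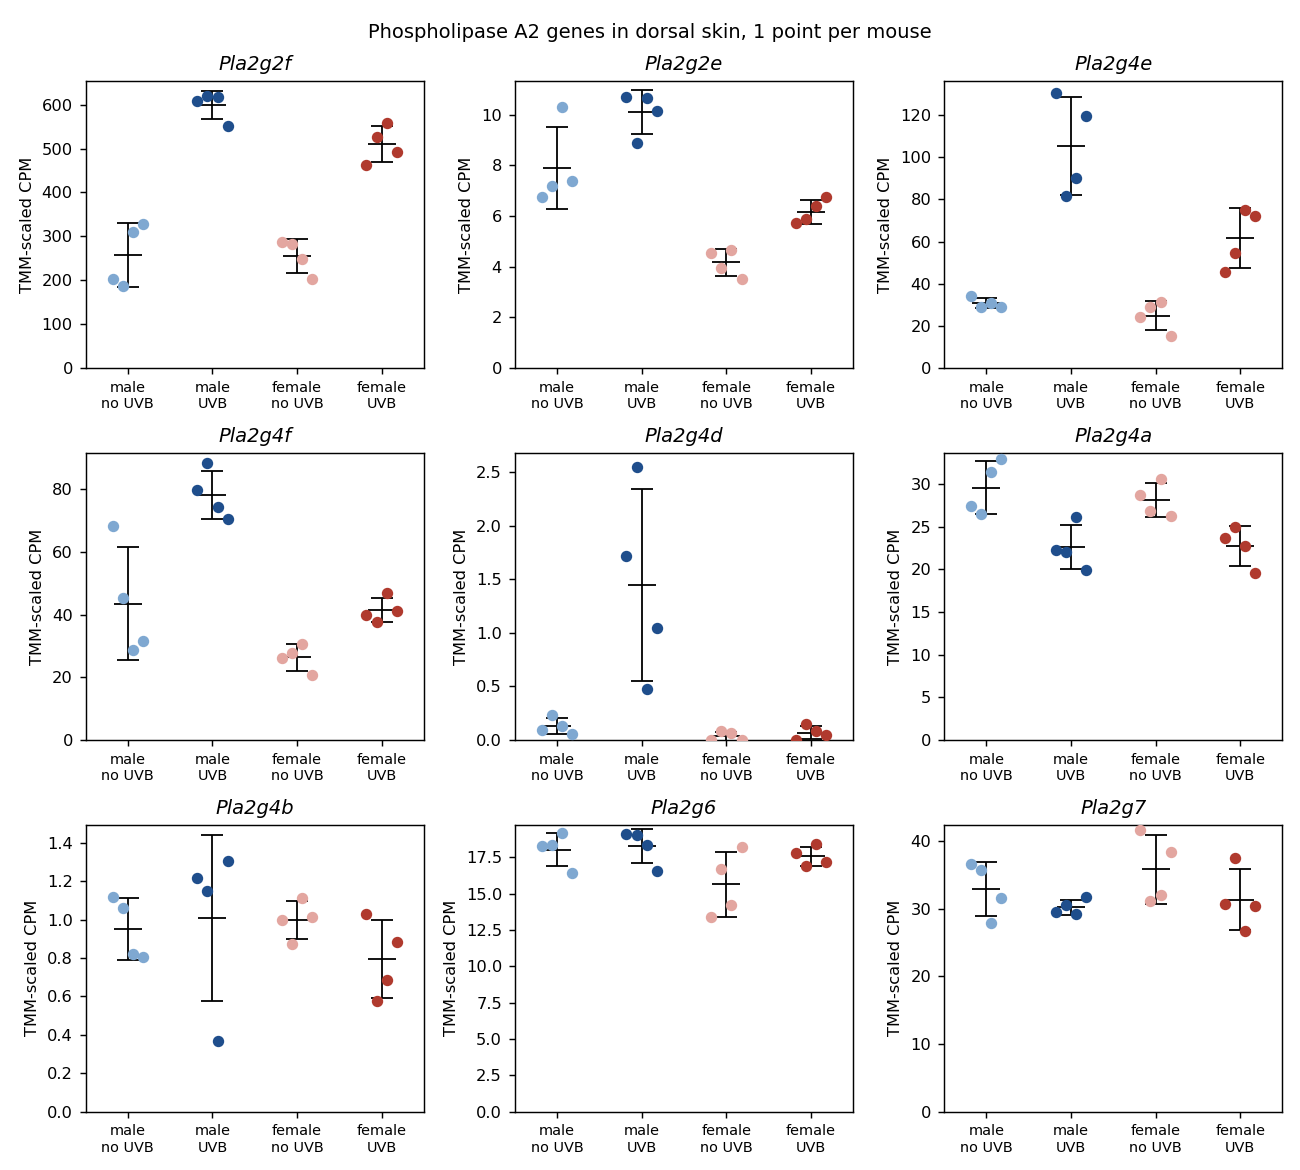
Level of each of the 9 genes (y axis, TMM-scaled CPM) in each mouse (points), by group (x axis), with the mean and the SD of 4 mice as bars. *Pla2g2f* and *Pla2g4e* are higher in every irradiated mouse than in any no-UVB mouse of the same sex, and *Pla2g4d* exceeds 0.3 CPM only in irradiated males.

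The promoters of the members that changed most are shown here, since *Pla2g4e*, *Pla2g4d* and *Pla2g4f* lie side by side on chromosome 2 and were highest in irradiated males, and *Pla2g2f* rose with them from chromosome 4. Each line gives the 250 bases before the start of the canonical GENCODE transcript, read from GRCm39 along the gene's strand, and capitals mark a match to a motif searched for.
*Pla2g2f*, chr4:138484958-138485207, minus strand: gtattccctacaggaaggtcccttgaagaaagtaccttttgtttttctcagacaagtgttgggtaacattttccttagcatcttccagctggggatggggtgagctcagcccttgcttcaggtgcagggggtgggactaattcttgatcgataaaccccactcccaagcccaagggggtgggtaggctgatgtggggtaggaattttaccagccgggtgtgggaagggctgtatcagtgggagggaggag
*Pla2g4e*, chr2:120075817-120076066, minus strand: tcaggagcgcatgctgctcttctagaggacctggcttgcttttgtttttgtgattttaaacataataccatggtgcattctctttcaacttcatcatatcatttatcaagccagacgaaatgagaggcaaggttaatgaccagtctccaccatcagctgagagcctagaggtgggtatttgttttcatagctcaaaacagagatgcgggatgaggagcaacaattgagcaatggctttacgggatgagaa
*Pla2g4d*, chr2:120119679-120119928, minus strand: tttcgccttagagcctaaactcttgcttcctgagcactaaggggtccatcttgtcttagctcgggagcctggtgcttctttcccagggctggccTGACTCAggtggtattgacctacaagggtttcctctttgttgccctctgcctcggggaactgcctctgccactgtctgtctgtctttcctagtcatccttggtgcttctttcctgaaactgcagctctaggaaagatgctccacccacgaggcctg
*Pla2g4f*, chr2:120144654-120144903, minus strand: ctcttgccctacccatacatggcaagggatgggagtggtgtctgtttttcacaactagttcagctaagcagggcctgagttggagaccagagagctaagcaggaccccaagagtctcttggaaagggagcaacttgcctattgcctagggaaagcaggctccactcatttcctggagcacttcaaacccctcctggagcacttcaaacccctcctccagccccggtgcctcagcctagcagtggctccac

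Each window was searched on both strands for TGANTCA, the AP-1 motif, for TATAAA, the TATA box, for GGGCGG, the GC box, for CCAAT, and for AACNGGTT, the motif of the Grainyhead factors. Of the 4 printed windows, that of *Pla2g4d* held an AP-1 match, TGACTCA, 156 to 150 bases before the start, and the other 3 held no match. Among all 9 members 2 had an AP-1 match, *Pla2g4d* and *Pla2g7*, while 6.17% of the windows of 21770 protein-coding genes had one. The TATA box and the Grainyhead motif were found in 0 of the 9, against 11.9% and 1.79% of all windows. The GC box was found in 2 members and 36.3% of all windows, and CCAAT in 3 members and 36.5%. RefSeq places the start of *Pla2g4e* at the same base, and those of *Pla2g4f*, *Pla2g2f* and *Pla2g4d* 7, 48 and 128 bases further into the gene, so the windows depend on the annotation.

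*Pla2g2f* encodes a secreted phospholipase A2 known from the suprabasal epidermis. The gene lies on chromosome 4 of GRCm39 from 138477843 to 138484957. Its level was 203, 186, 309 and 329 CPM in the 4 no-UVB males and 609, 620, 616 and 552 CPM in the 4 irradiated males. In females it was 286, 282, 248 and 202 CPM without UVB and 463, 526, 558 and 492 CPM after it. Every irradiated mouse was above every no-UVB mouse of its sex, and after UVB the lowest male, at 552 CPM, was within the range of the females. On the log2 scale, males rose by 1.25 (standard error, SE, 0.177, edgeR adjusted *p* = 0.000356) and females by 1.01 (SE 0.121, 0.000606). The difference between these responses was 0.22 (95% interval -0.25 to 0.69, edgeR adjusted *p* = 0.608), so a larger rise in males was not shown with all mice.

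The size of the rise of *Pla2g2f* in males depended on which controls were taken. The pair with high *Fos* had 203 and 186 CPM and the pair with hair shaft transcripts had 309 and 329 CPM. Without replicates 3 and 4 the log2 fold change was 1.66, and without replicates 1 and 2 it was 0.94, both past the threshold of edgeR. The response in males exceeded that in females by 0.62 without replicates 3 and 4 (edgeR adjusted *p* = 0.0461), and the difference was -0.10 without replicates 1 and 2 (0.847). The levels of the no-UVB sexes differed by 0.01 on the log2 scale with all mice and by -0.39 without replicates 3 and 4, males lower (edgeR adjusted *p* = 0.0999). The part of the hair shaft transcripts or of the *Fos* level in these values was not tested.

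*Pla2g2e* encodes another secreted enzyme of the same group, known in mouse skin from the hair follicle. It lies on the same chromosome, from 138605253 to 138610128. The no-UVB males had 6.76, 7.18, 10.3 and 7.40 CPM, and the irradiated males had 10.7, 8.87, 10.7 and 10.2 CPM. The no-UVB females had 4.55, 3.96, 4.65 and 3.54 CPM, and the irradiated females had 5.71, 5.88, 6.39 and 6.74 CPM. The groups overlapped in males, through no-UVB replicate 3, and did not overlap in females. The log2 change of *Pla2g2e* was 0.37 for males (SE 0.139, edgeR adjusted *p* = 0.0403) and 0.57 for females (SE 0.128, 0.0146), a rise in both. The rise in males was 0.58 without no-UVB replicates 3 and 4, and it was no longer called without replicate 1 (0.30, edgeR adjusted *p* = 0.108) or without replicates 1 and 2 (0.21, 0.299).

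A difference between the sexes was present in *Pla2g2e* with and without UVB. Every no-UVB male was above every no-UVB female, with a log2 difference of 0.92 (SE 0.136, edgeR adjusted *p* = 0.000473). Every irradiated male was above every irradiated female, with a log2 difference of 0.71 (SE 0.132, 0.00251). Leaving out either pair of no-UVB males kept the difference without UVB between 0.74 and 1.09. The hair shaft and root sheath list was at 9 to 18 CPM in all 8 irradiated mice and at 13 to 146 CPM in the no-UVB males, and its part in the level of *Pla2g2e* was not tested.

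The cytosolic genes *Pla2g4b*, *Pla2g4e*, *Pla2g4d* and *Pla2g4f* stand in this order within 281 kb of chromosome 2, the last 3 all on the minus strand. *Pla2g4e* encodes an enzyme known as a calcium-dependent N-acyltransferase, which makes the precursors of N-acylethanolamines, and lies from 119996893 to 120076084. It shares 4.58% of its exon bases with *Gm13997* of the same strand, which had at most 1 count in a mouse. Its level in no-UVB males was 34.3, 29.1, 30.8 and 29.1 CPM, and in irradiated males it was 130, 81.4, 90.2 and 120 CPM. No-UVB females had 24.2, 29.1, 31.2 and 15.3 CPM, and irradiated females had 45.4, 54.7, 74.8 and 72.0 CPM. In each sex the groups did not overlap, and the lowest irradiated male exceeded the highest irradiated female. *Pla2g4e* had the largest fitted rise of the 8 tested members in both sexes, with log2 values of 1.80 for males (SE 0.145, edgeR adjusted *p* = 1.07e-05) and 1.31 for females (SE 0.224, 0.00485).

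The 2 pairs of no-UVB males overlapped in *Pla2g4e*. Its rise in males was 1.78 without replicates 3 and 4 and 1.85 without replicates 1 and 2. After UVB the males were higher than the females by 0.77 (SE 0.204, edgeR adjusted *p* = 0.0189), while without UVB the difference was 0.30 (SE 0.211, 0.453). The difference between the responses was 0.48 with a 95% interval of -0.15 to 1.10 (edgeR adjusted *p* = 0.371). It ranged from 0.35 to 0.66 when each mouse was left out in turn and was not called in any of these fits, so a stronger response of males in *Pla2g4e* was not shown, with an interval that reached from below 0 to 1.10.

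*Pla2g4f*, whose enzyme is a further cytosolic member of the group, lies from 120130438 to 120144653. The no-UVB males had 68.2, 45.4, 28.8 and 31.5 CPM, and the irradiated males had 79.7, 88.2, 74.5 and 70.4 CPM. The no-UVB females had 26.3, 27.7, 30.6 and 20.7 CPM, and the irradiated females had 39.9, 37.8, 46.9 and 41.1 CPM. The groups did not overlap in either sex, although no-UVB male replicate 1 was close to the lowest irradiated male. The log2 rise was 0.87 among males (SE 0.264, edgeR adjusted *p* = 0.0259) and 0.66 among females (SE 0.116, 0.00473). In males it was 0.50 without no-UVB replicates 3 and 4 and 1.40 without replicates 1 and 2.

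In *Pla2g4f* the no-UVB males separated the other way from *Pla2g2f*. The pair with high *Fos* had 68.2 and 45.4 CPM, and the pair with hair shaft transcripts had 28.8 and 31.5 CPM, close to the no-UVB females. The difference between no-UVB males and females was 0.72 with all mice (SE 0.211, edgeR adjusted *p* = 0.0506), 1.11 without replicates 3 and 4, and 0.19 without replicates 1 and 2, which was not called (0.530). That call was also lost without male replicate 1 (0.42) or 2 (0.70), or without female replicate 1 (0.72), 2 (0.73) or 4 (0.60), with edgeR adjusted *p* from 0.1002 to 0.129. After UVB every male was above every female, by 0.92 (SE 0.208, edgeR adjusted *p* = 0.00925). The response differed between the sexes by 0.19 with all mice (edgeR adjusted *p* = 0.750), by 0.72 without replicates 1 and 2 (0.0928), and by -0.19 without replicates 3 and 4 (0.623).

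**Figure D2:**
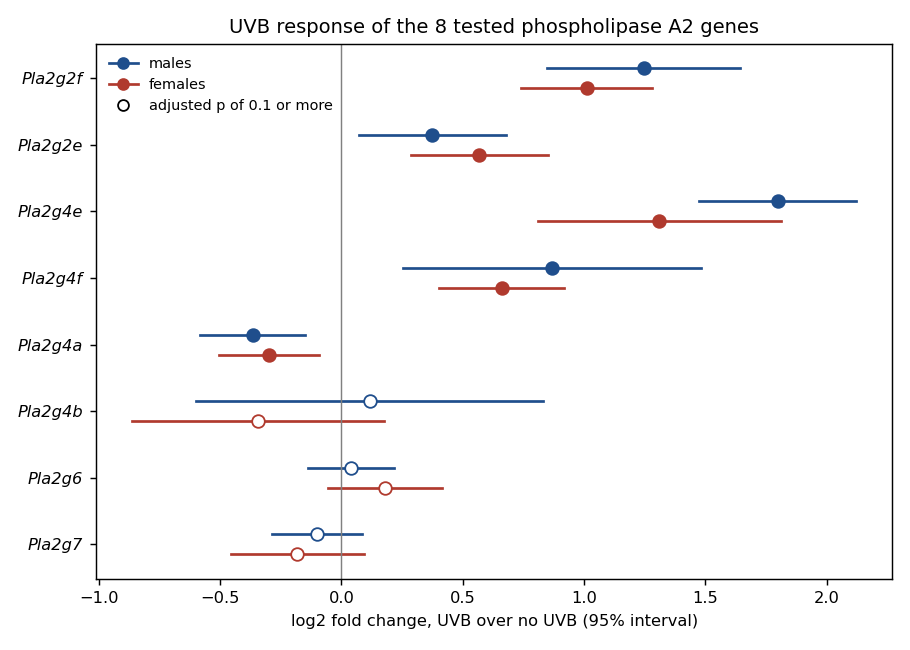
Log2 fold change of UVB over no UVB (x axis) with its 95% interval for the 8 tested members (y axis) in males and females, with open circles where the edgeR adjusted *p* was 0.1 or more. *Pla2g4e* has the largest estimate in both sexes (1.80 and 1.31), *Pla2g4a* lies below 0 in both, and the intervals of the sexes overlap for every gene.

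*Pla2g4d* encodes a cytosolic enzyme known from psoriatic epidermis, and lies from 120096076 to 120119678, between *Pla2g4e* and *Pla2g4f*. The 4 no-UVB males had 2, 5, 3 and 1 reads of it, and the 4 irradiated males had 55, 40, 9 and 20 reads. The no-UVB females had 0, 2, 2 and 0 reads, and the irradiated females had 0, 4, 2 and 1 reads. In CPM the irradiated males had 1.71, 2.55, 0.475 and 1.04, and no other mouse exceeded 0.230, so this group stood above the other 3. The spread within the irradiated males was wide, with a mean of 1.45 CPM and an SD of 0.895 (n = 4).

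The mean of *Pla2g4d* in irradiated males was 11.3 times that in no-UVB males, with 124 against 11 reads in all. The exact two-sided permutation test over mice gave *p* = 0.0286, the smallest value that 4 against 4 mice allow, and 0.0571 when adjusted over the 4 comparisons made for this gene. Against irradiated females, with 7 reads in all, the exact permutation *p* was also 0.0286 and the ratio of the means was 20.9. In females the exact permutation *p* of the UVB comparison was 0.486, and with at most 2 reads in a no-UVB and 4 in an irradiated female, a fall or a small rise was not detectable at this depth. With the filter lowered to 1 count over the libraries, edgeR gave *Pla2g4d* a log2 change of 3.43 for males (SE 0.507, adjusted *p* = 1.24e-05) and 0.83 for females (SE 1.01, adjusted *p* = 0.661). This fit used the same reads as the permutation test, so it is no separate support for a rise in males. In it the male and female responses differed by 2.59, with an edgeR adjusted *p* of 0.442. DESeq2 gave 2.61 with an unadjusted *p* of 0.0401 and no adjusted one, so a response restricted to males was not shown.

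*Pla2g4a* encodes cytosolic phospholipase A2 alpha, the enzyme best known for releasing arachidonic acid for prostaglandin synthesis, and was the member that fell. It lies on chromosome 1 from 149705369 to 149837053. Its level was 27.4, 26.4, 31.4 and 33.0 CPM in no-UVB males and 22.3, 22.0, 26.1 and 19.97 CPM in irradiated males. In females it was 28.8, 26.8, 30.6 and 26.3 CPM without UVB and 23.6, 25.0, 22.8 and 19.5 CPM after it. The irradiated mice of each sex were all below the no-UVB mice, and the sexes had overlapping levels in each treatment. In log2 terms *Pla2g4a* fell by 0.36 among males (SE 0.0986, edgeR adjusted *p* = 0.00905) and fell by 0.30 among females (SE 0.0923, 0.0537).

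The fall of *Pla2g4a* was called in fewer of the alternative fits than the rises of *Pla2g2f*, *Pla2g4e* and *Pla2g4f*. In males it was -0.48 without no-UVB replicates 1 and 2, and it was -0.21 and not called without replicates 3 and 4 (edgeR adjusted *p* = 0.124). In females it lost its call without UVB replicate 3, without UVB replicate 4 or without no-UVB replicate 3, with values of -0.30, -0.23 and -0.25 and edgeR adjusted *p* of 0.108, 0.118 and 0.132. The sexes differed in the response by -0.08 (95% interval -0.37 to 0.21).

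Marker lists of other cell types also held genes that fell. Of 5 genes used for Langerhans cells, 4 were called lower and 1 higher in males and 1 lower in females. Their sum was 1767 to 2212 CPM in no-UVB and 1158 to 1489 CPM in irradiated males, and 1910 to 2691 and 1733 to 2335 CPM in the females. The list includes the cytokine gene *Il34* and the epithelial gene *Epcam*. Most of its sum came from *Cd74* and *H2-Ab1*, with means of 1243 and 613 CPM in no-UVB males. *Cd207* had means of 22.6 and 13.3 CPM in no-UVB and irradiated males and 30.8 and 25.4 CPM in the females. Of 6 T cell genes, 5 were lower and 1 higher in males and 3 lower in females, with sums of 40.2 to 51.8 and 23.0 to 32.7 CPM in males and 49.97 to 90.7 and 41.3 to 54.7 CPM in females. Of 6 fibroblast genes, 5 were lower in males, and in females 1 was lower and 1 higher. Their sum was 79065 to 86268 and 28385 to 39292 CPM in males and 19205 to 20539 and 12113 to 21853 CPM in females, and most of it came from *Col1a1*, *Col1a2* and *Col3a1*. The summed skeletal muscle list was at 19086 to 23677 CPM in no-UVB and 13972 to 17166 CPM in irradiated males. In females it was at 12745 to 18255 and 13654 to 19683 CPM. The adipocyte sums overlapped in both sexes. The part of these cells in the level of *Pla2g4a* was not tested.

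The cytosolic gene *Pla2g4b* was near the limit of measurement. It lies on chromosome 2 from 119863898 to 119873511, and 66.5% of its exon bases are shared on the same strand with the readthrough gene *Gm28042*, which had 0 counts in all 16 mice. Reads that fall within both genes are not assigned to either by this way of counting, so the counts of *Pla2g4b* cover the remaining 1953 exon bases. Within the shared bases, 13.6% of the exon length lies opposite *Sptbn5*, a gene of the other strand with at most 170 counts in a mouse. Its level was 0.803 to 1.12 CPM in no-UVB males, 0.370 to 1.30 in irradiated males, 0.872 to 1.11 in no-UVB females and 0.577 to 1.03 in irradiated females. All 4 groups overlapped. The UVB response was 0.12 in males (95% interval -0.60 to 0.83) and -0.34 in females (-0.86 to 0.18), with edgeR adjusted *p* of 0.785 and 0.358.

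*Pla2g6*, which encodes a calcium-independent phospholipase A2 of membrane upkeep, was the steadiest member. It lies on chromosome 15 from 79170418 to 79212631. The no-UVB males had 18.3, 18.3, 19.1 and 16.4 CPM and the irradiated males 19.1, 19.0, 18.4 and 16.6 CPM, while the females had 13.4 to 18.2 CPM without UVB and 16.9 to 18.4 CPM after it. No group stood apart. The no-UVB males were higher than the no-UVB females by 0.21, which was not called (edgeR adjusted *p* = 0.184), and by 0.27 without female replicate 4, which was (0.0771). The UVB response was 0.04 in males (95% interval -0.14 to 0.22) and 0.18 in females (-0.06 to 0.41), neither of them past the threshold of edgeR (adjusted *p* of 0.702 and 0.292).

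*Pla2g7* encodes the acetylhydrolase that inactivates platelet-activating factor, made largely by macrophages, and lies on chromosome 17 from 43878846 to 43923289. Its level was 27.9 to 36.5 CPM in no-UVB males, 29.2 to 31.6 in irradiated males, 31.2 to 41.7 in no-UVB females and 26.7 to 37.5 in irradiated females, so that all groups overlapped. The response was -0.10 in males (95% interval -0.29 to 0.08, edgeR adjusted *p* = 0.332) and -0.18 in females (-0.46 to 0.09, 0.357). In males it was called at -0.16 without no-UVB replicate 3 (edgeR adjusted *p* = 0.0843), at -0.22 without replicates 3 and 4 (0.0294) and at -0.18 under upper quartile scaling (0.0929), and it was 0.05 without replicates 1 and 2 (0.656). Of 10 macrophage markers, 6 were called lower in males and 1 in females after UVB, and 0 were called higher, also at an unadjusted *p* under 0.05 or by DESeq2. Their summed level was 2009 to 2650 CPM in no-UVB males and 1648 to 2182 CPM in irradiated males, and its part in the level of *Pla2g7* was not tested.

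Between the sexes, the test of the difference in the UVB response called 0 of the 8 members in either direction, while 2.75% of 17406 genes had the higher response in males and 4.25% the lower one. In edgeR an unadjusted *p* under 0.05 was reached by 0 of the 8, and DESeq2 called 0 as well. The differences of the members ranged from -0.21 in *Pla2g2e* to 0.48 in *Pla2g4e*. Comparing the levels themselves, no-UVB males were higher than no-UVB females in 2 of the 8 members (*Pla2g2e* and *Pla2g4f*), against 7.21% of all genes, and lower in 0, against 4.58%. Irradiated males were higher in 3 (*Pla2g2e*, *Pla2g4e* and *Pla2g4f*), against 12.8% of all genes, and lower in 0, against 12.5%. DESeq2, and edgeR at an unadjusted *p* under 0.05, also had 0 members lower in males. The males stood above the females without overlap in 1 member without UVB (7.80% of all genes) and in 3 after UVB (11.5%), and below them in 0 (5.17% and 9.76%). These comparisons share mice with one another, so their counts are not independent.

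The levels of the 9 genes were spread over a wide range. Levels of different genes were compared as CPM per kb of exon. On this scale *Pla2g2f* was first in every group, at 100 ± 28.3 CPM per kb in no-UVB males, 234 ± 12.4 in irradiated males, 99.3 ± 15.2 in no-UVB females and 199 ± 16.1 in irradiated females (SD, n = 4). It made up 71.1%, 78.8%, 76.4% and 82.9% of the mean levels of the 9 genes summed on this scale. In no-UVB males *Pla2g4f* (13.5), *Pla2g2e* (8.28) and *Pla2g7* (7.91) followed, and over the 4 mice the first overlapped the second and the second overlapped the third. *Pla2g4e* (4.19) and *Pla2g4a* (3.94) came next and overlapped, ahead of *Pla2g6* (2.61), *Pla2g4b* (0.163) and *Pla2g4d* (0.0346).

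UVB changed the order below *Pla2g2f*. In irradiated males *Pla2g4f* was at 24.4 CPM per kb, above *Pla2g4e* at 14.4 without overlap, and *Pla2g4e* overlapped *Pla2g2e* at 10.6. *Pla2g4a*, at 3.01 CPM per kb, now overlapped *Pla2g6* at 2.64. *Pla2g4d*, at 0.392, overlapped *Pla2g4b*, which was at 0.173 over its whole exon length and at 0.517 over the bases it does not share with *Gm28042*, so the order of these 2 depends on the length taken. In irradiated females the order was *Pla2g4f* (12.9), *Pla2g4e* (8.40), *Pla2g7* (7.52) and *Pla2g2e* (6.46), the last 3 overlapping in turn. Per exon length, *Pla2g2f* was 20.6 to 29.2 times the level of *Pla2g4a* in no-UVB males and 69.1 to 82.4 times in irradiated males, and the ratio went from 22.5 to 30.8 in no-UVB females to 57.4 to 73.7 in irradiated females. That of *Pla2g4e* to its neighbour *Pla2g4f* had a median of 0.34 and 0.42 in no-UVB males and females and 0.62 and 0.66 in the irradiated mice.

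**Figure D3:**
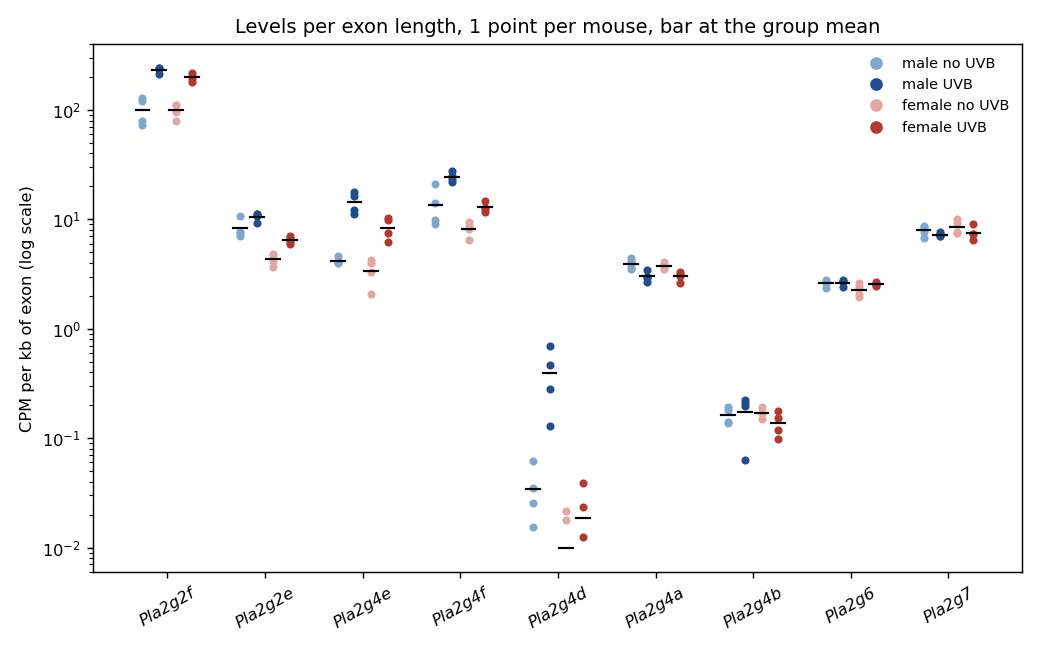
Level per exon length (y axis, CPM per kb of exon, log scale) of the 9 genes (x axis) in each mouse (points), with a bar at the mean of 4 mice. *Pla2g2f* lies above all other members in every group and *Pla2g4d* below 1 CPM per kb throughout, and mice with 0 reads of *Pla2g4d* cannot be drawn on the log axis.

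The genes between and beside the members were examined within 100 kb on either side, a choice made after the values of the members had been seen. Of 7 such genes tested on chromosome 2, 1 was called higher and 2 lower in males, and 2 lower in females, where 30.5% of all genes were lower in males and 10.6% in females. *Ehd4*, next to *Pla2g4e*, had log2 changes of 0.08 and -0.06 in males and females, and *Vps39*, next to *Pla2g4f*, had -0.10 and 0.01, none of them called by edgeR. On chromosome 4 lies *Pla2g2d*, a secreted enzyme gene between *Pla2g2f* and *Pla2g2e*, with 0.10 and 0.09, also not called. Of the 5 tested there, 2 were lower in males and 1 in females. Near *Pla2g2f*, *Ubxn10* had -0.63 and -0.39, and beside *Pla2g2e*, *Otud3* had 0.20 and -0.00, none of them called. *Pla2g5*, another secreted enzyme gene between *Pla2g2f* and *Pla2g2e*, had 25.7, 21.7, 21.3 and 26.5 CPM in no-UVB males and 12.1, 10.4, 13.7 and 10.9 CPM in irradiated males. In females it had 9.08 to 11.3 CPM without UVB and 9.37 to 10.2 CPM after it. The no-UVB males were thus above all other mice. In males *Pla2g5* fell by 0.99 in log2 units (edgeR adjusted *p* = 2.66e-05), its response in females was -0.01 (0.949), and the difference between the responses was -0.99 (0.00477). The fibroblast marker list was also highest in no-UVB males, with a summed level of 79065 to 86268 CPM against 12113 to 39292 in the other groups, and its part in the level of *Pla2g5* was not tested.

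**Figure D4:**
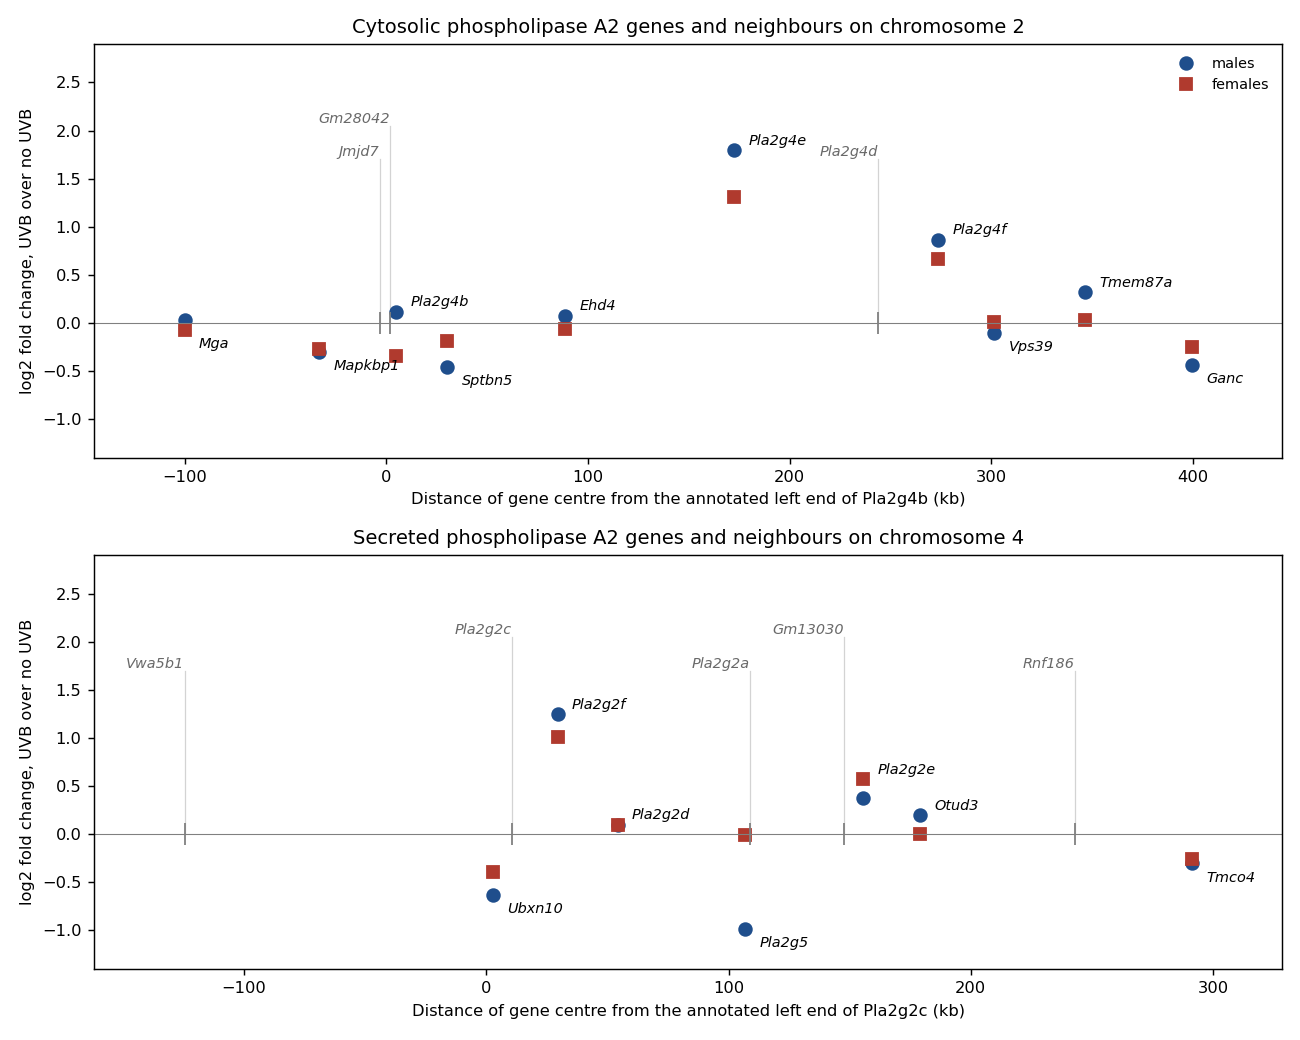
Log2 fold change of UVB over no UVB (y axis) of the genes around the cytosolic members on chromosome 2 (top) and the secreted members on chromosome 4 (bottom), against distance in kb (x axis), in males (circles) and females (squares), with grey ticks for genes too low to be tested. *Pla2g4e*, *Pla2g4f*, *Pla2g2f* and *Pla2g2e* lie above 0 in both sexes, *Ehd4*, *Vps39* and *Pla2g2d*, beside or between them, are between -0.10 and 0.10, and *Pla2g5*, also between *Pla2g2f* and *Pla2g2e*, is at -0.99 in males.

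The members that rose are set here beside lists of markers, which did not all move with them. Of 7 basal keratinocyte genes, 3 were called higher and 1 lower in males and 1 higher and 1 lower in females, with overlapping sums in both sexes. Of 6 mast cell genes, 3 were called higher in males and 5 in females and 0 lower, also with overlapping sums. Of the 10 genes of differentiated keratinocytes, 9 were called higher and 1 lower in males, and 7 were called higher in females. Their summed level was 9676 to 13888 CPM in no-UVB males, 21527 to 28874 in irradiated males, 8984 to 12986 in no-UVB females and 13942 to 18328 in irradiated females. All 6 genes of stressed keratinocytes were called higher in males and 4 of 6 in females, with summed levels of 881 to 1117 and 4463 to 7865 CPM in no-UVB and irradiated males, and 706 to 1527 and 1377 to 2363 CPM in the females. Of 6 genes of the outer root sheath and bulge, 1 was called higher and 4 lower in males and 2 lower in females, while their sum went from 1380 to 1565 CPM in no-UVB males to 1862 to 2060 in irradiated males and overlapped in the females (1173 to 1768 and 1399 to 1761). Of 8 sebaceous genes, 5 were higher and 1 lower in males and 4 higher in females, with overlapping sums in both sexes. Of 8 neutrophil genes, 5 were higher and 1 lower in males and 2 higher and 1 lower in females, with sums of 35.5 to 39.3 and 62.5 to 169 CPM in no-UVB and irradiated males and 32.7 to 46.0 and 33.5 to 38.5 CPM in the females, and the defining marker *Ly6g* was at no more than 3 counts throughout. Within the irradiated males, replicate 4 was lowest both in *Pla2g2f* (552 CPM) and in the differentiated list (21527 CPM). It was second highest in *Pla2g4e* (120 CPM). The part of these markers in the levels of the members was not tested.

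**Figure D5:**
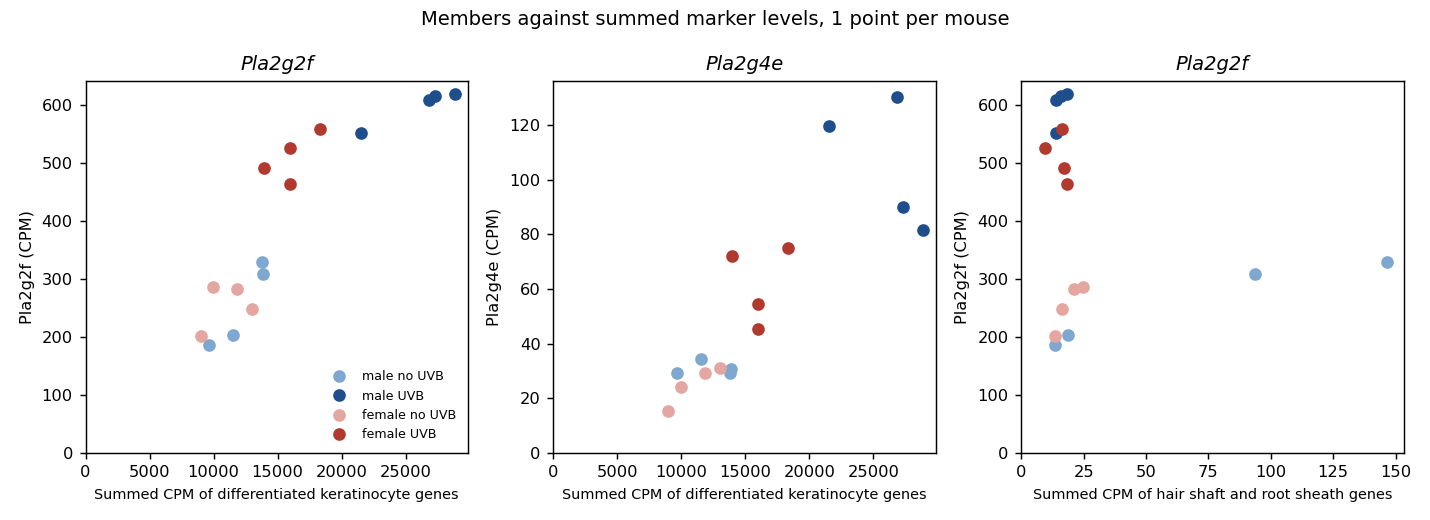
Level of *Pla2g2f* (left and right) and *Pla2g4e* (centre) (y axes, CPM) against the summed CPM of 10 differentiated keratinocyte genes (left and centre) or of 9 hair shaft and inner root sheath genes (right) (x axes), 1 point per mouse. Irradiated mice lie at higher *Pla2g2f* and higher keratinocyte sums than no-UVB mice of the same sex, and 2 no-UVB males stand apart at 94 and 146 CPM of hair shaft genes.

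For each member with a mean of at least 1 CPM, the 3 genes of most similar pattern were taken among 14020 protein-coding genes, by the root mean square difference of their centred log2 CPM over the 16 mice. Those of *Pla2g2f* were *Tmigd1* (0.139), the cell cycle kinase gene *Cdk1* (0.154) and *Cdsn* (0.156), which encodes corneodesmosin of the cornified layer. *Tmigd1* itself rose by 1.32 and 1.17 in males and females. For *Pla2g4e* they were *Tlcd4* (0.238), the epidermal lipoxygenase gene *Alox12b* (0.253) and *Pnpla1* (0.267), whose enzyme makes acylceramides of the skin barrier. Those of *Pla2g4f* were *Hbegf* (0.264), which encodes an EGF receptor ligand, *Mapk6* (0.268) and *Slc10a6* (0.281), and *Slc10a6* showed the same 2 pairs of no-UVB males, at 24.7 and 27.7 against 10.7 and 11.1 CPM. The pattern of *Pla2g2e* was nearest to those of *Cyp51* (0.236) and *Lss* (0.249), both of cholesterol synthesis, and *Srm* (0.243), of spermidine synthesis. All 16 mice share the groups of the study, so such likeness reflects the group means as well as single mice.

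The remaining phospholipase A2 family was counted from a list of 26 genes, of which 20 could be tested. In males 7 were called higher and 10 lower, and in females 4 higher and 0 lower (2 lower at an unadjusted *p* under 0.05 of edgeR, 0 by DESeq2). Of all genes tested, 29.0% were called higher and 30.5% lower in males, and 12.8% and 10.6% in females. The median log2 change of the list was -0.19 in males and -0.02 in females. It was 0.25 and 0.37 for the 8 members and -0.02 and 0.00 over all genes tested. *Pnpla1* had 22.8 ± 4.46 CPM in no-UVB males and 72.5 ± 10.01 CPM in irradiated males, and 19.4 ± 3.40 and 50.2 ± 5.90 CPM in the females (SD, n = 4), a rise of 1.69 and 1.38 in log2 units. *Pnpla5*, a lipase gene of the same patatin family, rose by 0.54 and 0.69. *Plaat3*, an adipocyte-rich phospholipase gene, fell by 0.65 in males, and its value in females was -0.04. *Pla2g1b*, *Pla2g2c*, *Pla2g10* and *Pla2g12b* had at most 3 counts in every mouse.

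Downstream of the release of arachidonic acid, a list of 20 genes drawn up for its conversion gave 9 higher and 6 lower in males and 6 higher and 4 lower in females, with median log2 changes of 0.20 and 0.11. The list also holds *Alox12b*, *Aloxe3* and *Cyp4f39*, which act in the lipid barrier of the epidermis. Their means in males were 48.9, 56.8 and 59.8 CPM without UVB and 143, 99.8 and 124 CPM after it. In females they were 39.2, 49.9 and 51.9 CPM and 96.2, 83.6 and 82.8 CPM. Among all genes tested, 29.0% were higher and 30.5% lower in males and 12.8% and 10.6% in females, and the medians were -0.02 and 0.00, against which this and the next list are to be read. *Alox12b*, whose lipoxygenase acts in the same barrier pathway as *Pnpla1*, was at 48.9 ± 8.25 CPM in no-UVB and 143 ± 8.33 CPM in irradiated males, and at 39.2 ± 5.58 and 96.2 ± 9.61 CPM in the females, and rose in both sexes. The difference between its responses, 0.26, was not called by edgeR. *Ptgs2*, the inducible cyclooxygenase gene, rose by 1.09 and 1.01, and the prostaglandin E synthase gene *Ptges* by 1.28 in males and 0.57 in females, a difference of 0.70 that was called (edgeR adjusted *p* = 0.0155). *Tbxas1*, which encodes thromboxane synthase, fell by 1.10 and 0.62. Of the 13 genes that return arachidonate to phospholipids, 3 were called higher and 5 lower in males and 1 higher and 3 lower in females, with medians of -0.14 and 0.05. *Lpcat3*, a lysophospholipid acyltransferase gene, rose by 0.42 and 0.46, *Lclat1* fell by 0.37 and 0.44, and *Mboat1* fell by 0.24 and 0.57. *Acsl3*, an acyl-CoA synthetase gene, fell by 0.65 in males, and its value in females was -0.27.

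Lysophospholipid and platelet-activating factor signalling was described by 16 genes, of which 15 were tested. In males 6 were called higher and 6 lower, and in females 2 higher and 0 lower (2 lower at an unadjusted *p* under 0.05 of edgeR, 1 by DESeq2). The shares over all genes tested were 29.0% higher and 30.5% lower in males and 12.8% and 10.6% in females. *Liph*, whose enzyme makes lysophosphatidic acid in the hair follicle, rose by 0.26 in males and 0.61 in females. The receptor genes *Lpar1* and *Lpar3* fell by 0.68 and 0.67 in males, and *Plpp3*, a lipid phosphatase gene, fell by 0.71. In females these 3 had -0.09, -0.51 and -0.31 and were not called, and the response of *Lpar1* differed between the sexes by -0.60 (edgeR adjusted *p* = 0.0624).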

How the data were processed

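The files hold counts per gene, which the authors made with STAR (version not given in the sources used here) on GRCm39 from strand-specific poly(A) libraries, 1 per mouse, and deposited unnormalized. Reads with several alignments are listed at 0. The counts of the transcript's strand were used here, and reads on the other strand came to 3.63% to 4.23% of those on genes. Of 55359 gene identifiers, 54749 were found in GENCODE M39, which gave symbols, positions and exon lengths.

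Groups were taken from GEO's labels. The UVB response was fitted per sex (8 mice) and the sex comparisons over all 16, with the robust quasi-likelihood test of edgeR 4.0.16 (R 4.3.3), TMM scaling, filterByExpr and Benjamini-Hochberg adjustment over all genes tested. A gene was called at an adjusted *p* under 0.1. The study used this limit together with a log2 fold change past 1 after shrinkage by apeglm, which was run as an alternative. The replicates are separate mice, 4 per group. On simulated counts for these libraries, 97 of 100 genes changed by a log2 fold of 1 and 100 of 100 changed by 2 were called in males, 90 and 100 in females, and 82 and 96 in the interaction, beside 32, 26 and 21 unchanged genes called in these 3 runs. DESeq2 1.42.0 with apeglm 1.24.0, 2 other scalings, 2 other filters, unstranded counts, a replicate block, a joint fit and fits without single mice were alternatives. Fits without pairs of no-UVB males were added after the data had been seen.

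The 9 genes and the lists were chosen with earlier results of these data known. From each pathway list up to 4 genes are named, those with the largest absolute log2 fold change among those called in either sex with a mean of at least 1 CPM. The exact permutation test used all divisions of 4 against 4 mice. Promoters were read from the reference genome, and their motif shares cover the canonical transcripts of protein-coding genes.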

Additional observations from a re-analysis of the deposited data

Results flagged for a closer look

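Of 36 sets of 4 mice, each a member in a group, 2 held a mouse far from the other 3, measured as its gap to the nearest mouse over the range of the set and set against Dixon's critical value. Chance alone marks about 1 in 20 such sets. Irradiated male replicate 4 was the lowest of its group in *Pla2g2f*, at 552 CPM, with a gap of 0.8395 of the range, although it was above all 8 no-UVB mice. Irradiated male replicate 3 was the lowest in *Pla2g4b*, at 0.37 CPM, with a gap of 0.8342 of the range. Without that mouse the UVB response of *Pla2g4b* in males was 0.38 in place of 0.12, and irradiated males were called higher than irradiated females in *Pla2g4b* by 0.64 (edgeR adjusted *p* = 0.0800).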

How the results depend on the processing

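Over the alternatives run for single members, 831 values kept their direction and their side of the threshold, 13 lost the call, 7 gained it and 33 changed sign, each of the latter in a comparison not called with all mice. Of those 33, 1 also gained a call, that of *Pla2g2f* between the no-UVB sexes without no-UVB male replicates 3 and 4. Where a cause is not plain from the setting, it was not tested.

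With a log2 fold change past 1 required, 2 members were higher and 0 lower in each sex. With DESeq2 and apeglm shrinkage under that limit, 3 were higher in males, *Pla2g4d* (3.25) among them, and 0 lower, and in females 1 was higher and 0 lower. Upper quartile scaling gave 2 lower members in males. The response differed between the sexes in 1 member without no-UVB male replicates 1 and 2 (*Pla2g4f*) and in 1 without replicates 3 and 4 (*Pla2g2f*). Without UVB, 1 member was higher in males with a filter of at least 1 count and 1 without replicates 1 and 2, and 1 was lower without replicates 3 and 4. Leaving out each mouse in turn gave 1 to 2 lower members in males, 0 to 1 in females (0 without UVB replicate 3 or 4 or no-UVB replicate 3), 1 to 2 higher in males without UVB (2 without female no-UVB replicate 4, with *Pla2g6* called in place of *Pla2g4f*) and 3 to 5 after it. *Pla2g4d* enters these counts where it passed the filter. Except for the filter of at least 1 count, which it also passed in females, it could do so only through the irradiated males. These counts are therefore no support for its rise.

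Signs changed as follows. In males, *Pla2g4b* had -0.053 without no-UVB replicates 3 and 4 and -0.0089 to 0.38 without single mice, *Pla2g6* had -0.038 under upper quartile scaling and -0.0044 to 0.089 without single mice, and *Pla2g7* had 0.052 without replicates 1 and 2. In the difference between the responses, *Pla2g2f* had -0.10 without replicates 1 and 2, while *Pla2g4a*, *Pla2g4f* and *Pla2g7* had 0.051, -0.19 and -0.069 without replicates 3 and 4, and *Pla2g7* had -0.018 to 0.17 without single mice. Between the no-UVB sexes, *Pla2g2f* had -0.0094 under upper quartile scaling, -0.39 without replicates 3 and 4 and -0.13 to 0.14 without single mice. Without replicates 3 and 4, *Pla2g4a*, *Pla2g4b* and *Pla2g7* had -0.060, 0.12 and 0.017 there, and *Pla2g4b* had -0.15 to 0.00032 without single mice. Between the irradiated sexes, *Pla2g4a* had 0.013 with DESeq2, 0.012 with its size factors and -0.085 to 0.045 without single mice, and *Pla2g7* had -0.12 to 0.048.

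A pairing of mice by replicate number was not evident, though with 4 mice per group this check cannot exclude one. In their deviations from the group means, same-numbered mice correlated by -0.0732 to 0.0216 in males and -0.1146 to 0.2165 in females. Of the 4 males 0 and of the 4 females 2 matched their own number best. With the replicate block, *Pla2g2f* had -0.00051 between the no-UVB sexes and no member gained or lost a call.

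Over all genes, DESeq2 with apeglm and a fold past 1 called 710 higher and 449 lower in males in place of 4802 and 5051, and 243 and 119 in females in place of 2162 and 1787. The genes whose response was higher (478) or lower (740) in males became 63 and 115 without no-UVB male replicates 1 and 2, 832 higher without replicates 3 and 4, 1068 higher with DESeq2, 229 higher with at least 1 count, and 163 to 835 and 298 to 1020 without single mice. Between the no-UVB sexes, 1255 and 797 became 594 and 243 without replicates 1 and 2, 762 and 430 without male replicate 2, 522 lower without male replicate 1 and 810 higher without female replicate 2. Between the irradiated sexes 2222 became 1434 with at least 1 count and 1322 without female replicate 1. The shares of all genes given beside the members move with these counts.

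With at most 4 reads of *Pla2g4d* in a female library, a fall or a small rise in females could not be resolved.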
